A study of Rattus norvegicus with 14 samples.

Results

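The matrix metalloproteinases, the tissue inhibitors of metalloproteinases and the ADAMTS proteases were followed in lumbar dorsal root ganglia of rats. All genes whose symbol was Mmp, Timp or Adamts followed by a number, with or without a letter, were taken, which gave 46 of the 30562 genes in the tables: 23 Mmp, 4 Timp and 19 Adamts genes. RNA came from ganglia L2 to L5 of 7 male wild-type rats, which carried on a single hindlimb a graft of the extensor digitorum longus muscle placed at the saphenous nerve, a sensory branch. The ganglia of that side are called surgical and those of the unoperated hindlimb of the same rat control. Ganglia were taken 6 weeks after surgery from 3 rats (A, B, E) and 8 weeks after surgery from the other 4 (D, C, G, H), with 1 control and 1 surgical library per rat. No allele or drug was named for any group, and the labels used here gave neither strain nor age. The control ganglia belonged to an operated animal, and the pooled ganglia L2 to L5 also hold neurons of nerves other than the saphenous nerve, which limits both groups as a model of the graft.

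Matrix metalloproteinases are zinc enzymes that are secreted or held at the cell surface, made as inactive precursors, and cut collagens, gelatin, laminin, proteoglycans and other proteins outside the cell. The TIMP proteins bind to their active sites and block them, and TIMP3, which is held in the matrix, also blocks several ADAMTS and ADAM proteases. ADAMTS proteases are secreted enzymes with thrombospondin repeats, among them the aggrecanases that cut chondroitin sulphate proteoglycans and the enzymes that trim procollagens. In peripheral nerve and sensory ganglia these families are known for the remodelling of basement membrane and myelin after injury and for the entry of white blood cells.

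In the RefSeq order of genes (assembly GRCr8) 10 of the 46 genes lay next to each other on chromosome 8, in the order Mmp13, Mmp12, Mmp1b, Mmp3, Mmp1, Mmp10, Mmp8, Mmp27, Mmp20 and Mmp7. Promoter sequences from RefSeq were found for 42 of the 46 genes. They were searched on both strands, over the 250 bases before the annotated start, for the letters TGACTCA and their reverse complement TGAGTCA, which bind the AP-1 transcription factor and which occur in well-known collagenase and stromelysin promoters. The letters were found in 6 of the 10 genes of the cluster and in 0 of the 32 others, and in 4.05% of all 33469 promoters in the table. As they were already known from promoters of this kind, their share in the cluster is no test and no result of these libraries. The first base of the match lay 66 bases before the start in Mmp13, 87 in Mmp12, 71 in Mmp3, 84 in Mmp1, 61 in Mmp10 and 80 in Mmp7. The stretches of 100 bases that hold these matches are printed 5′ to 3′ with the match in capitals, because Mmp3, the gene of the set with the largest fitted difference between the sides over both times and at 8 weeks, lies among them, and Mmp8, the most abundant gene of the cluster, is added as a promoter without the letters.
Mmp13 (chr8:12782729-12782828, plus strand): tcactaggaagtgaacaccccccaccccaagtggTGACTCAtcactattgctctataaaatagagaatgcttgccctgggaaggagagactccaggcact
Mmp12 (chr8:12866552-12866651, plus strand): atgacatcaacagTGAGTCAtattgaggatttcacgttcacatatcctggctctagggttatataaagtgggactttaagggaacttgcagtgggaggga
Mmp3 (chr8:12925181-12925280, plus strand): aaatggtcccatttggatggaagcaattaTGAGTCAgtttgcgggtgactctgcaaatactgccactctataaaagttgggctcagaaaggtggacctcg
Mmp1 (chr8:12943353-12943452, plus strand): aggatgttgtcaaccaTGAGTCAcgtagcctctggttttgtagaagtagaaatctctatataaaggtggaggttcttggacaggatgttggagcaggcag
Mmp10 (chr8:12974607-12974706, plus strand): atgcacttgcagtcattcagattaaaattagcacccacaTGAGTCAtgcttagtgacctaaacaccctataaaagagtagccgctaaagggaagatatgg
Mmp8 (chr8:13008790-13008889, plus strand): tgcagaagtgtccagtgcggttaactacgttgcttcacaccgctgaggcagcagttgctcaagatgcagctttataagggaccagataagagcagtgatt
Mmp7 (chr8:13132943-13133042, plus strand): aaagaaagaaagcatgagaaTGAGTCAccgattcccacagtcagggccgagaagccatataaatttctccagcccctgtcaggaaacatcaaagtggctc
Of the 6 genes with the letters, Mmp1, Mmp7, Mmp10 and Mmp12 were at or near 0 in the ganglia, with highest counts of 1, 2, 5 and 19 in any library, while Mmp3 and Mmp13 were counted in every library. A match of letters is a description of the promoter and was not measured as a binding site.

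The libraries held 18489118 to 28237574 estimated counts. Values per library are given as CPM (counts scaled to library size) after TMM scaling, a factor per library that sets the bulk of genes level, and levels of different genes are compared as TPM, which also divides by transcript length. In each list the rats stand in the order A, B, E and then D, C, G, H. The 14 markers of sensory neurons were all above 0 in every library, and their summed level ran from 4217 CPM in the surgical library of rat A to 39041 CPM in the surgical library of rat H. Several libraries stood apart by transcripts of other tissue. In the surgical library of rat C the 8 muscle markers summed to 37477 CPM, the 8 bone and cartilage markers to 3429.9 CPM and the 6 fibroblast markers to 35863 CPM, where the other 13 libraries reached at most 5266 (control library of rat H), 182 and 8793 CPM. The surgical library of rat B held 926 CPM of the 7 spinal cord markers, which summed to at most 63.7 CPM elsewhere. In bulk tissue, fewer cells of a type and less RNA per cell cannot be told apart.

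By level, the ganglia were dominated by inhibitors. The 4 Timp genes made up 59.8% of the summed mean TPM of the 46 genes, and Timp2 alone 40.1%. Timp2 stood at 329.6 TPM (SD 104, n = 14), followed by Timp3 at 92.3 TPM (SD 32.01, n = 14). Mmp8, the collagenase of neutrophil granules, came next with 88.96 TPM (SD 50.1, n = 14), then Timp1 with 66.8 TPM (SD 16.2, n = 14). The difference between Timp3 and Mmp8 was smaller than the spread of either over libraries. Below them were Mmp15, a membrane-anchored protease, at 42.5 TPM (SD 16.1, n = 14), the gelatinases Mmp2 at 32.95 TPM (SD 16.5, n = 14) and Mmp9 at 32.8 TPM (SD 30.998, n = 14), and Mmp14, the membrane protease that activates the Mmp2 precursor, at 25.2 TPM (SD 11.4, n = 14); Mmp2, Mmp9 and Mmp14 overlapped in their spread. In all 12 genes had a mean of at least 10 TPM, 17 lay between 1 and 10 TPM, and 17 were under 1 TPM. Of the ADAMTS genes, only Adamts10, at 10.9 TPM (SD 2.64, n = 14), and Adamts1, at 10.3 TPM (SD 4.38, n = 14), reached 10 TPM.

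**Figure D1:**
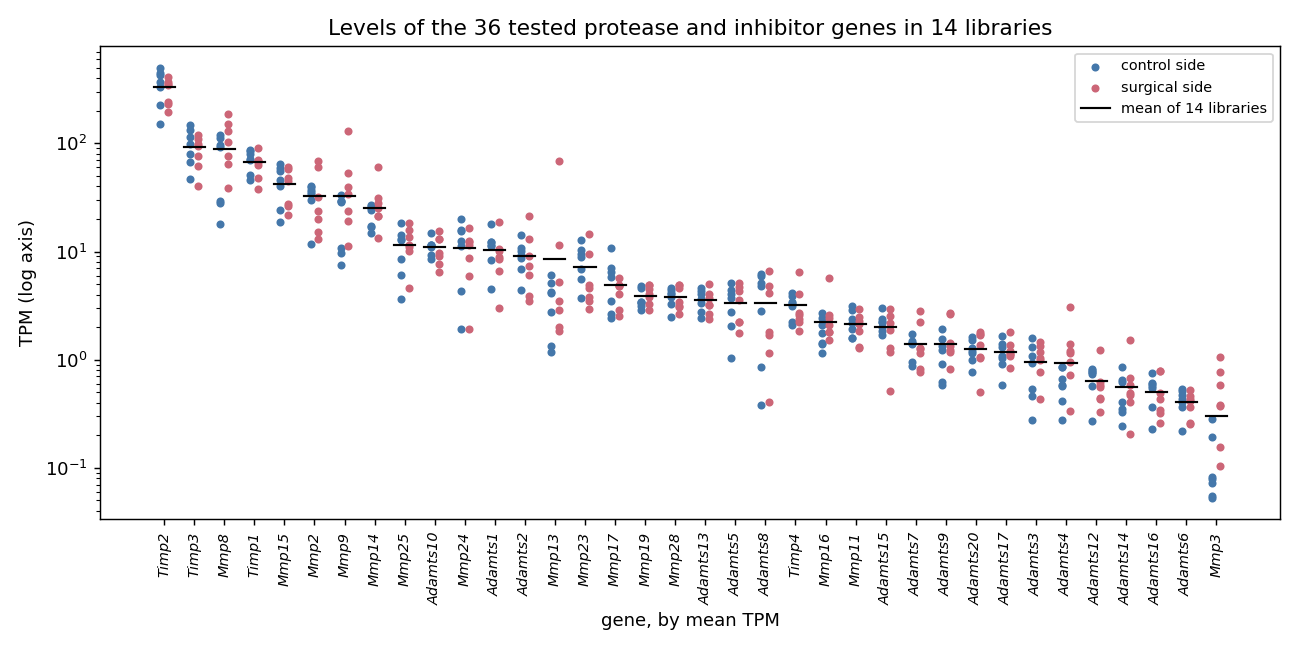
TPM of the 36 tested genes on a log axis, ordered by mean; each point is 1 library (blue, control side; red, surgical side) and each bar the mean of 14 libraries. Timp2 lies above all other genes, and Mmp9 and Mmp13 each have a surgical library, that of rat C, far above the rest.

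The filter on low counts kept 36 of the 46 genes: 15 Mmp, all 4 Timp and 17 Adamts. The other 10 were tested only in a fit without that filter. The highest count of Adamts18 was 56, in the surgical library of rat C, and that of the macrophage elastase Mmp12 was 19. Adamts19 reached 13, Mmp27 9, Mmp21 8, Mmp10 5, Mmp20, an enzyme of tooth enamel, 4, Mmp7 2, and Mmp1 and Mmp1b 1 each. Without the filter 0 of these 10 passed in edgeR in any of the 6 comparisons, where 0.115% of all genes passed between the times on the control side and 0% in the other 5. The unadjusted p was under 0.05 for 2 of them, Mmp12 between the sides over both times at 0.0486 and Mmp1b between the times on the control side at 0.0371, both from the counts just given. Among the 35 tested genes with more than 3 counts in every library, the highest CPM was a median of 4.36 times the lowest. That ratio was over 10 in 5 genes: 63.7 in Mmp13, 23.8 in Mmp9, 14.7 in Mmp8, 13.6 in Adamts4 and 10.8 in Adamts8. Adamts17 varied least, with a ratio of 1.896.

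**Figure D2:**
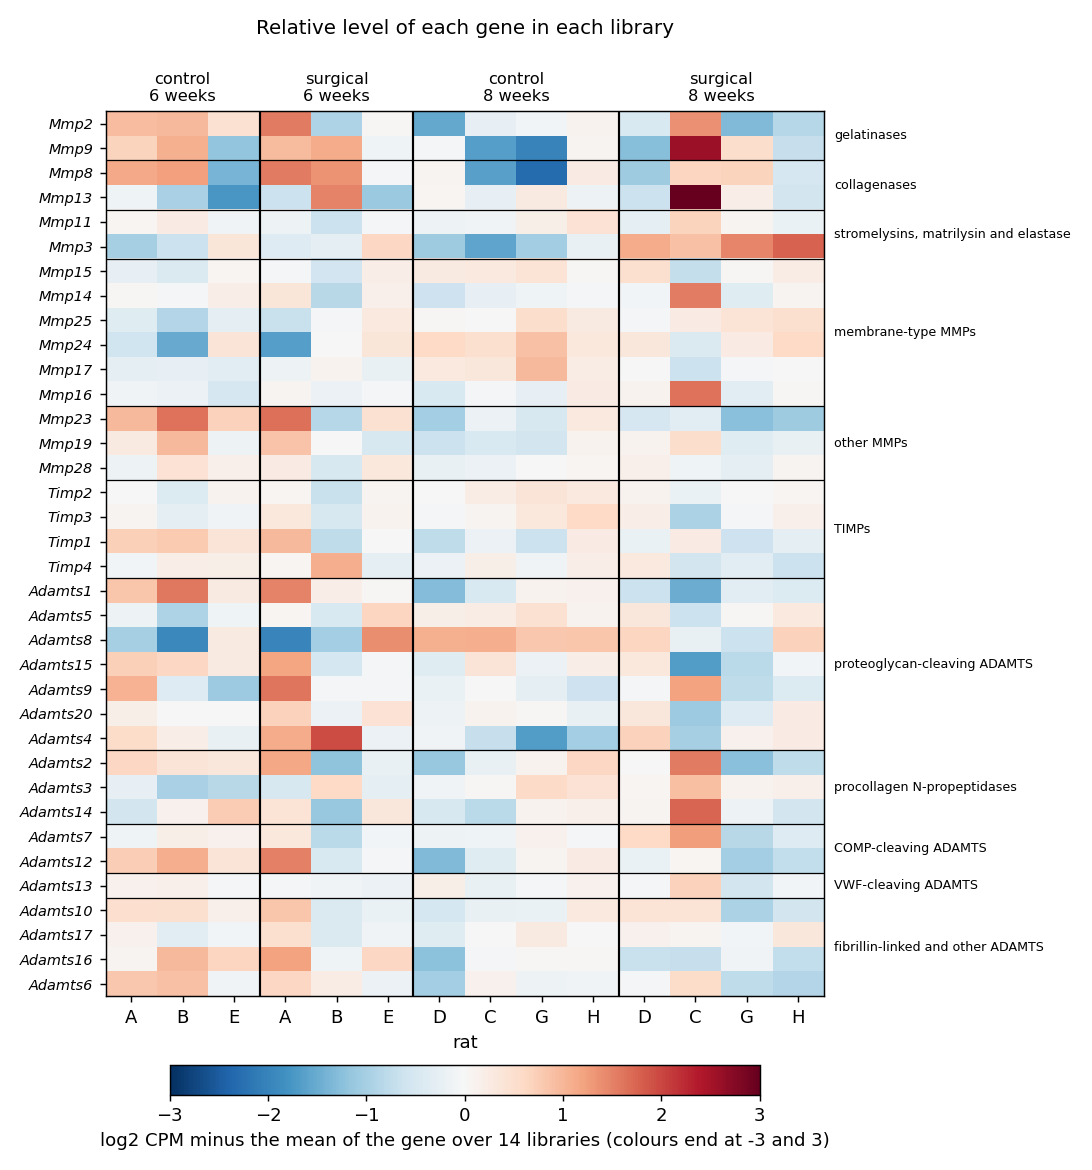
Log2 CPM of the 36 tested genes, less the mean of each gene over the 14 libraries, grouped by the role of the protein; columns are libraries by side, time and rat. The surgical library of rat C stands out in red for Mmp13, Mmp9, Mmp14, Mmp16, Mmp2, Adamts2 and Adamts14, and Mmp3 is red in all 4 surgical libraries at 8 weeks.

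The sides were compared within each rat, which asks whether ganglia upstream of the graft differ from those of the unoperated limb. None of the 36 genes passed an adjusted p under 0.05 (edgeR quasi-likelihood test, Benjamini-Hochberg adjustment) over both times, at 6 weeks, at 8 weeks, or for the difference between the 2 times; over all 17035 genes the share called was 0% in each of these 4 comparisons. At an unadjusted p under 0.05 there were 2 of the 36 genes over both times (Mmp3 and Adamts4), where 2.42% of all genes lay under that level. There were 0 at 6 weeks (3.21% of all genes), 2 at 8 weeks (Mmp3 and Mmp17; 1.06%) and 2 for the difference between times (the same 2 genes; 1.48%). Fitted log2 differences were above 0 in 16 of 36 genes over both times with a median of -0.089, in 18 with a median of 0.037 at 6 weeks, and in 20 with a median of 0.023 at 8 weeks. The median of all genes was 0.00038, -0.0080 and 0.0057. A single gene, Mmp3, had a higher surgical than control value in 7 of 7 rats, as had 0.458% of all genes, and 0 of the 36 were lower in 7 of 7, against 0.746% of all genes. Mmp3 entered the test only through surgical libraries, since 5 of them and 0 control libraries were over the minimum of 0.459 CPM, so its place in these counts is no support for a difference. DESeq2 called 1 of the 36 at 8 weeks, Mmp3, among the 0.0235% of genes it called there, and 0 in the remaining comparisons of the sides. Of all 17035 genes it called 6 over both times, 44 at 6 weeks and 5 for the difference between times. With limma on log2 TPM, 0 of the 36 and 0 of all genes were called in each of the 4.

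Mmp3, or stromelysin 1, is a secreted protease that cuts laminin, fibronectin and proteoglycans and activates other metalloproteinases. It was rare in every library. Counts on the control side were 2, 3 and 9 at 6 weeks and 3, 1, 3 and 6 at 8 weeks. On the surgical side they were 4, 5 and 10 at 6 weeks and 18, 14, 26 and 31 at 8 weeks. The 4 surgical libraries at 8 weeks were thus above all of the other 10, and at 6 weeks the sides overlapped. The share of all genes with such a pattern was not counted. As Mmp3 passed the filter only through surgical libraries, this separation is no support for a difference. In CPM the control side held 0.111, 0.168 and 0.426 CPM at 6 weeks and 0.103, 0.0437, 0.106 and 0.253 CPM at 8 weeks, and the surgical side 0.218, 0.235 and 0.522 CPM at 6 weeks and 0.774, 0.6402, 1.02 and 1.26 CPM at 8 weeks. At 8 weeks the summed counts of 89 and 13 gave a surgical to control ratio of 7.498 per effective library size, with an exact 95% interval of 4.17 to 14.6 that covers counting error only. At 6 weeks, 19 and 14 counts gave 1.32 with an interval of 0.625 to 2.83. The fitted log2 difference was 2.92 (SE 0.39) at 8 weeks with an unadjusted p of 0.000101 and an adjusted p of 1 in edgeR; DESeq2 gave an adjusted p of 0.0239. At 6 weeks it was 0.51 (SE 0.47), and the difference at 8 weeks exceeded that at 6 weeks by 2.40 (SE 0.62), with an edgeR unadjusted p of 0.0053 and an adjusted p of 1. The limit given above for the filter holds for these ratios, intervals and p-values, and for the values below with rats left out. Without the surgical and control libraries of rat C the log2 difference at 8 weeks was 2.75, and without rats B, C and H it was 3.03.

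Marker sums were also set beside Mmp3. While Mmp3 exceeded its control value in 7 of 7 rats, the spinal cord markers summed to more in surgical than in control ganglia in 6 rats, the bone markers in 5, the macrophage, neutrophil and muscle markers each in 4, the fibroblast and endothelial markers each in 3 and the neuronal markers in 2. Since Mmp3 was higher in every rat, each count only tells how often the markers themselves were higher. It cannot show which tissue goes with Mmp3. The part of these tissues in the level of Mmp3 was not tested. Mmp10, a close copy of Mmp3 with which it can share reads, had 0 to 5 counts in a library. Mmp11, or stromelysin 3, is the other tested gene of this role. Its control values were 4.06, 4.64 and 3.59 CPM at 6 weeks and 3.49, 3.59, 4.37 and 5.22 CPM at 8 weeks, and its surgical values were 3.48, 2.44 and 3.76 CPM at 6 weeks and 3.14, 6.22, 4.11 and 3.39 CPM at 8 weeks. The sides overlapped at both times, and the log2 difference was -0.36 (SE 0.35) at 6 weeks.

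**Figure D3:**
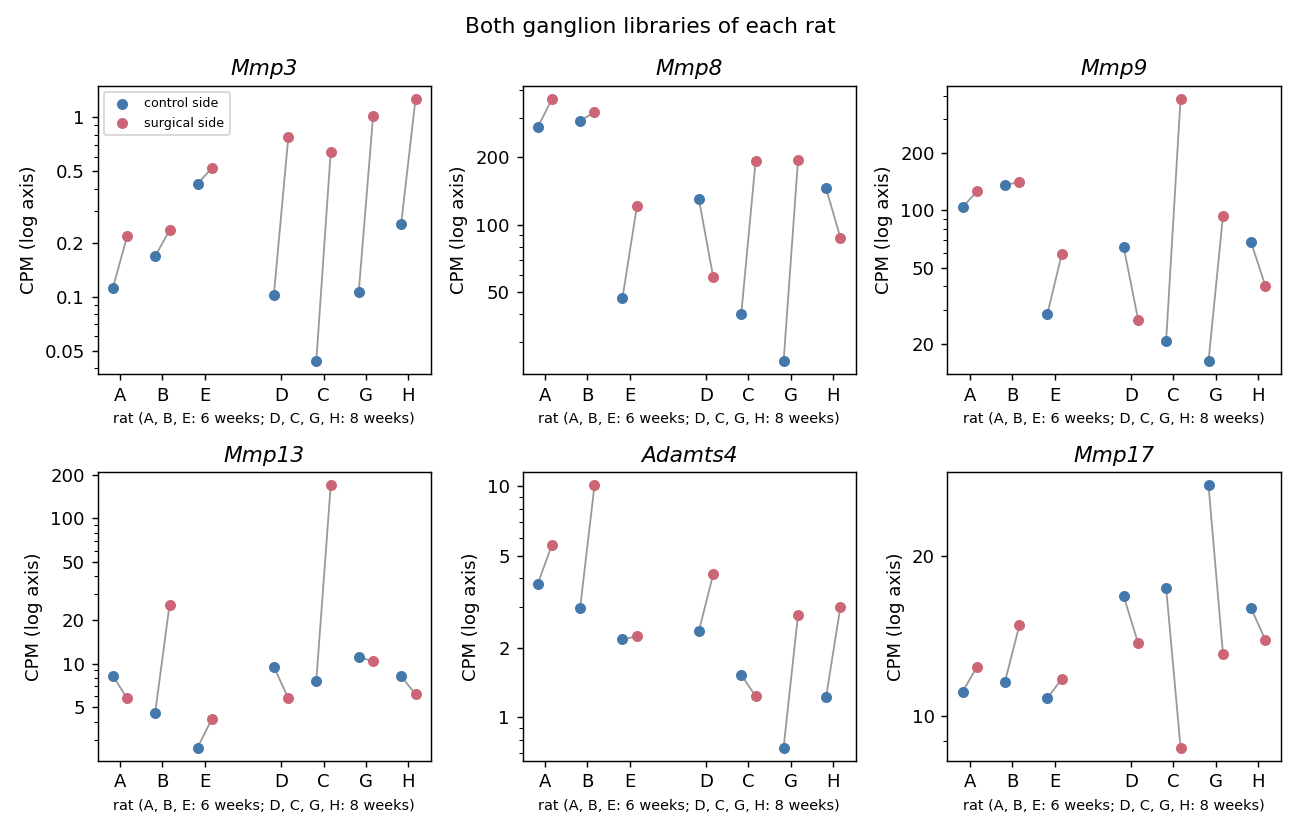
CPM of 6 genes in both libraries of each rat on log axes; blue points are control and red points surgical ganglia, joined within a rat. Lines of Mmp3 run upward in 7 of 7 rats and most steeply at 8 weeks, those of Mmp8 and Mmp9 run both ways, Mmp13 has a single surgical library at 169 CPM, and lines of Mmp17 run upward at 6 weeks and downward at 8 weeks.

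The collagenases Mmp8 and Mmp13 and the gelatinase Mmp9 had the highest ratios of highest to lowest CPM among the 35 genes with more than 3 counts in every library. Mmp8 stood on the control side at 272, 292 and 47.3 CPM at 6 weeks and 131, 40.01, 24.8 and 146 CPM at 8 weeks. Surgical libraries held 364, 317 and 121 CPM at 6 weeks and 58.5, 193, 195 and 87.5 CPM at 8 weeks. Surgical exceeded control ganglia in 5 of 7 rats, with rats D and H the exceptions, the groups overlapped, and the log2 difference over both times was 0.73 (SE 0.53). Mmp9, which neutrophils and osteoclasts also make, was named after its values were seen. Its control values were 104, 136 and 28.7 CPM at 6 weeks and 63.9, 20.6, 16.2 and 68.3 CPM at 8 weeks, and its surgical values 126, 141 and 59.1 CPM at 6 weeks and 26.7, 385, 93.7 and 40.2 CPM at 8 weeks. The rats and their directions were those of Mmp8, and the surgical library of rat C was the highest. The log2 difference over both times was 0.75 (SE 0.66), and 0.28 without rat C.

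Of the 8 markers of neutrophils and marrow, 7 were above 0 in every library and Ltf was at 0 in some. They summed to 956 to 8320.1 CPM in control and 1854 to 6045 CPM in surgical libraries at 6 weeks, and to 548 to 3032 and 796 to 5971 CPM at 8 weeks. Mmp8 and Mmp9 each moved to the same side as this sum in 6 of 7 rats; the exception was rat B, in which the markers summed to 8320.1 CPM on the control and 6045 CPM on the surgical side. The part of such cells in the levels of Mmp8 and Mmp9 was not tested.

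Mmp13, the collagenase of cartilage and bone cells, was also named after its values were seen. It stood on the control side at 8.28, 4.58 and 2.65 CPM at 6 weeks and 9.53, 7.65, 11.1 and 8.21 CPM at 8 weeks. The surgical ganglia gave 5.76, 25.5 and 4.18 CPM at 6 weeks and 5.76, 169, 10.4 and 6.16 CPM at 8 weeks. The surgical library of rat C was above every other library, that of rat B was next, and the other 12 libraries lay between 2.65 and 11.1 CPM with the sides overlapping. The 8 bone and cartilage markers, all above 0 in every library, summed to 46.5 to 84.7 and 48.5 to 182 CPM on the control and surgical side at 6 weeks and to 36.2 to 84.3 and 36.7 to 3429.9 CPM at 8 weeks; the highest and second highest sums were in the same libraries of rats C and B. The log2 difference of Mmp13 over both times was 0.67 (SE 0.66), and it was -0.19 without rats B, C and H.

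Mmp2, or gelatinase A, which cuts type IV collagen and denatured collagen, stood on the control side at 145, 150.3 and 105 CPM at 6 weeks and 26.2, 64.4, 72.97 and 83.2 CPM at 8 weeks. Its surgical values were 225, 40.4 and 79.2 CPM at 6 weeks and 55.8, 199.9, 30.6 and 42.2 CPM at 8 weeks. It was higher on the surgical side in rats A, D and C and lower in the other 4, with a log2 difference over both times of -0.17 (SE 0.45). The sum of the 6 fibroblast markers, all above 0 in every library, moved to the same side as Mmp2 in 7 of 7 rats. So did Adamts2, a procollagen-trimming enzyme. Single markers differed from each other. Over both times 2 of the 6, Col1a1 (0.62) and Col1a2 (0.43), had a fitted log2 difference above 0. The fibroblast markers summed to 3034 to 6434 and 2219 to 8793 CPM on the control and surgical side at 6 weeks and to 959 to 2651 and 1368 to 35863 CPM at 8 weeks, and their part in these values was not tested.

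The 6 membrane-type proteases are held at the cell surface by a transmembrane stretch or a lipid anchor. Mmp15 stood on the control side at 111, 97.2 and 138 CPM at 6 weeks and 159, 162, 176 and 137 CPM at 8 weeks. On the surgical side it stood at 130.03, 88.9 and 151 CPM at 6 weeks and 183, 80.9, 135 and 156 CPM at 8 weeks. It was higher on the surgical side in 4 rats and lower in B, C and G, and the log2 difference over both times was -0.10 (SE 0.17). Mmp14 stood at 44.7, 42.5 and 49.5 CPM at 6 weeks and 28.2, 36.3, 39.6 and 41.9 CPM at 8 weeks on the control side. Surgical libraries held 55.5, 24.1 and 47.8 CPM at 6 weeks and 41.2, 126, 33.7 and 45.6 CPM at 8 weeks. The surgical library of rat C was the highest of the 14, the sides overlapped at both times, and the log2 difference at 8 weeks was 0.54 (SE 0.34), and 0.15 without rat C.

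Mmp17, a lipid-anchored protease, had the smallest p of this role at 8 weeks. Its control values were 11.1, 11.6 and 10.8 CPM at 6 weeks and 16.8, 17.4, 27.2 and 15.9999 CPM at 8 weeks. The surgical ganglia gave 12.4, 14.8 and 11.8 CPM at 6 weeks and 13.7, 8.73, 13.1 and 13.9 CPM at 8 weeks. The surgical value was the higher one in 3 of 3 rats at 6 weeks and the lower one in 4 of 4 at 8 weeks. At 8 weeks all control libraries were above all surgical ones. The share of all genes with such a pattern was not counted. The log2 difference at 8 weeks was -0.64 (SE 0.20), with an unadjusted p of 0.0131 and an adjusted p of 1 in edgeR. The difference at 8 weeks less that at 6 weeks was -0.85 (SE 0.30), with an unadjusted p of 0.0239 and the same adjusted p. The sum of the 14 neuronal markers moved to the side of Mmp17 in 4 of 7 rats. For Mmp24, a membrane-type protease known from neurons, it did so in 7 of 7. Some of these moves were very small. Control and surgical values of Mmp24 in rat E were 42.22 and 42.15 CPM, and the neuronal sums in rat G were 35792 and 35613 CPM. At 6 weeks 5 of the 6 membrane-type genes had a fitted difference above 0 (median 0.17), and at 8 weeks 3 of 6 (median -0.086).

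Mmp23 is an unusual member that carries an immunoglobulin-like domain. It stood on the control side at 13.8, 21.7 and 11.3 CPM at 6 weeks and 3.42, 6.12, 4.97 and 8.55 CPM at 8 weeks. Its surgical values were 22.3, 3.802 and 9.66 CPM at 6 weeks and 4.86, 5.53, 2.86 and 3.305 CPM at 8 weeks. The fitted log2 difference was -0.63 (SE 0.64) at 6 weeks, and without rat B, where the control and surgical values were 21.7 and 3.802 CPM, it was 0.24. Its direction was that of the summed fibroblast markers in 6 of 7 rats. The other 2 tested genes without a named class, Mmp19 and Mmp28, gave fitted differences over both times of 0.14 and -0.027.

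None of the 4 inhibitors passed the test between the sides. Timp1, an inhibitor that cytokines induce in many cells, stood on the control side at 62.97, 66.1 and 50.02 CPM at 6 weeks and 22.6, 33.7, 24.2 and 45.3 CPM at 8 weeks. On the surgical side it stood at 75.3, 22.4 and 38.6 CPM at 6 weeks and 33.2, 45.04, 24.9 and 31.7 CPM at 8 weeks. The sides overlapped at both times. The log2 difference was -0.55 (SE 0.36) at 6 weeks (-0.054 without rat B) and -0.16 (SE 0.25) over both times. The sum of the fibroblast markers moved to the side of Timp1 in 6 of 7 rats. Timp2, which besides blocking proteases helps Mmp14 to activate the Mmp2 precursor, stood on the control side at 410.3, 315 and 446 CPM at 6 weeks and 411, 487, 542 and 509 CPM at 8 weeks. Surgical libraries held 436, 263 and 439 CPM at 6 weeks and 445, 361, 419 and 435 CPM at 8 weeks, with a log2 difference over both times of -0.16 (SE 0.13). All 14 libraries of this gene lay within a range of 2.06 times.

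Timp3 stood on the control side at 129, 102 and 113 CPM at 6 weeks and 117, 130.3, 153 and 186 CPM at 8 weeks. The surgical ganglia gave 152, 87.9 and 132 CPM at 6 weeks and 140.5, 63.2, 119.7 and 136 CPM at 8 weeks. The log2 difference over both times was -0.19 (SE 0.17) and that at 8 weeks -0.40 (SE 0.22), where rat D went the other way. Timp4, the least abundant inhibitor, known from heart and brain, stood on the control side at 7.95, 9.67 and 9.55 CPM at 6 weeks and 7.48, 9.49, 7.9003 and 9.68 CPM at 8 weeks and on the surgical side at 8.81, 18.1 and 6.895 CPM at 6 weeks and 10.4, 5.76, 6.77 and 5.39 CPM at 8 weeks, with a log2 difference of -0.11 (SE 0.23). The fitted difference over both times was below 0 in 4 of 4 Timp genes with a median of -0.16; without rats B, C and H the values of Timp1 and Timp3 were 0.12 and 0.092, so the direction was not kept. Timp1, Timp3 and Timp4 lie within the genes of the synapsins Syn1, Syn3 and Syn2 in the RefSeq annotation, and since the use of strand in the counting was not given in the sources used here, reads of such a pair may not be told apart.

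Of the ADAMTS genes that cut proteoglycans, 7 were tested. Adamts4, an aggrecanase, stood on the control side at 3.78, 2.96 and 2.17 CPM at 6 weeks and 2.36, 1.53, 0.741 and 1.22 CPM at 8 weeks. Its surgical values were 5.601, 10.1 and 2.25 CPM at 6 weeks and 4.17, 1.23, 2.78 and 3.02 CPM at 8 weeks. Surgical exceeded control values in 6 of 7 rats, with rat C the exception, while the groups overlapped at both times. The log2 difference over both times was 0.88 (SE 0.31) with an unadjusted p of 0.0195 and an adjusted p of 1 in edgeR, and it was 0.80 (SE 0.50) at 6 weeks and 0.94 (SE 0.44) at 8 weeks. Adamts9, which cuts versican and aggrecan, stood on the control side at 14.9, 5.48 and 3.31 CPM at 6 weeks and 6.22, 7.303, 5.82 and 4.67 CPM at 8 weeks. On the surgical side it stood at 21.97, 7.04 and 6.9996 CPM at 6 weeks and 7.01, 16.8, 4.23 and 5.39 CPM at 8 weeks. Surgical values again exceeded control values in 6 of 7 rats, here with rat G the exception. The log2 difference of Adamts9 was 0.45 (SE 0.21) over both times and 0.66 (SE 0.33) at 6 weeks. For Adamts4 and Adamts9 alike, the share of all genes higher in 6 of 7 rats was not counted.

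Adamts5, the other main aggrecanase, had control values of 9.34, 5.48 and 9.504 CPM at 6 weeks and 11.7, 12.2, 14.2 and 11.3 CPM at 8 weeks. Surgical libraries held 10.8, 7.56 and 16.3 CPM at 6 weeks and 13.2, 6.63, 10.7 and 12.7 CPM at 8 weeks. The surgical value was the higher one in 3 of 3 rats at 6 weeks, by 0.49 (SE 0.26) on the log2 scale, and the difference at 8 weeks less that at 6 weeks was -0.72 (SE 0.35). Adamts8 stood on the control side at 3.39, 1.73 and 8.32 CPM at 6 weeks and 14.6, 14.7, 12.2 and 12.4 CPM at 8 weeks. The surgical ganglia gave 1.69, 3.38 and 18.2 CPM at 6 weeks and 10.8, 5.85, 4.35 and 11.3 CPM at 8 weeks. At 8 weeks the surgical value was the lower one in 4 of 4 rats. The groups did not overlap, with the lowest control value at 12.2 and the highest surgical value at 11.3 CPM. The log2 difference was -0.84 (SE 0.40), with an unadjusted p of 0.0697 in edgeR. The shares of all genes with the patterns given here for Adamts5 and Adamts8 were not counted. Adamts15, next to Adamts8 in the genome, had control values of 16.7, 15.6 and 12.2 CPM at 6 weeks and 7.89, 13.3, 8.99 and 11.6 CPM at 8 weeks and surgical values of 22.9, 6.99 and 9.72 CPM at 6 weeks and 12.5, 3.11, 5.72 and 9.51 CPM at 8 weeks. Its log2 difference was -0.47 (SE 0.32), and 0.043 without rats B, C and H.

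Among the remaining ADAMTS genes none had an unadjusted p under 0.05 in a comparison of the sides. The 3 procollagen-trimming genes Adamts2, Adamts3 and Adamts14 had fitted differences over both times from -0.23 to 0.31. Adamts7 and Adamts12, whose products cut cartilage oligomeric matrix protein, lay between -0.25 and 0.013. Adamts13, which cuts von Willebrand factor, and Adamts6, Adamts10, Adamts16 and Adamts17, several of which act on fibrillin or fibronectin, lay between -0.15 and 0.12.

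**Figure D4:**
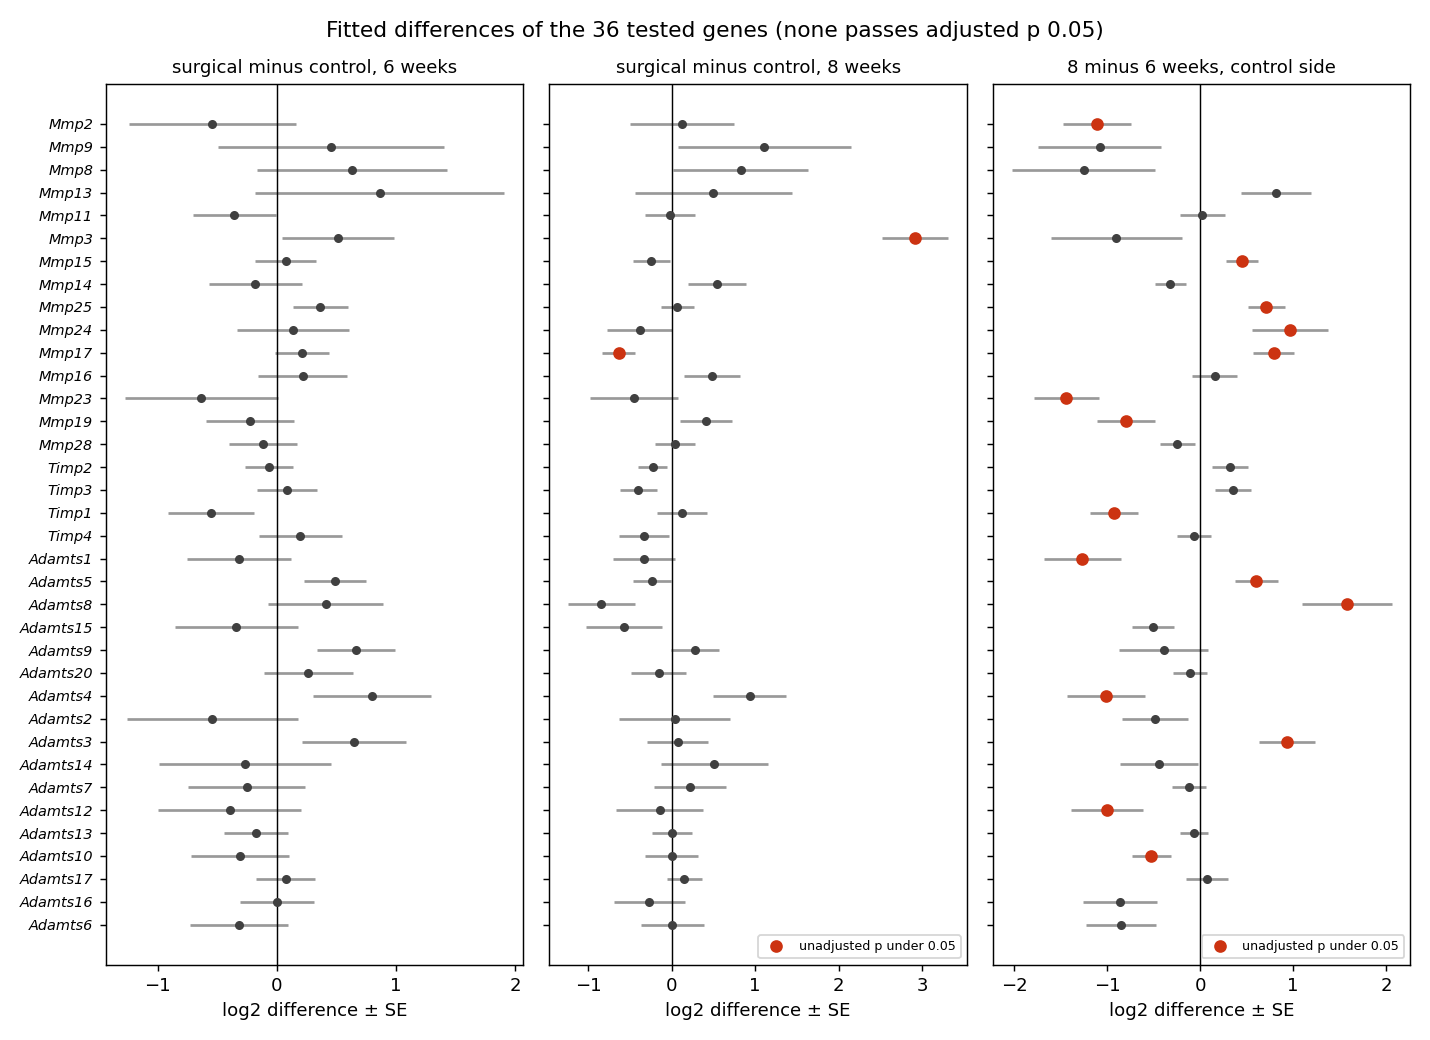
Fitted log2 differences of the 36 tested genes with bars of 1 SE, between the sides at 6 weeks and at 8 weeks and between the times on the control side; red points have an unadjusted p under 0.05. There are 0 red points at 6 weeks, 2 at 8 weeks (Mmp3 and Mmp17) and 15 between the times.

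The times were compared between different rats, on each side separately. On the control side 0 of the 36 genes passed an adjusted p under 0.05 in edgeR, against 0.147% of all genes, while 15 were under 0.05 before adjustment, where 30.4% of all genes lay under that level. Of the 15, 7 had a fitted value above 0 (higher at 8 weeks) and 8 below. DESeq2 called 9 of the 36 (18% of all genes) and limma on log2 TPM 0. Of all 17309 genes tested, limma called 9 on log2(TPM + 1) and 13 on log2(TPM + 0.1). Without rat E, which left only rats A and B at 6 weeks, edgeR called 10 of 37 genes and 36.6% of all genes. The control library of rat E held 30536 CPM of neuronal markers, against 14799.5 and 7169 CPM in rats A and B. The cause of the higher count was not tested. Every 8-week control library was above every 6-week one in 5 of the 36 genes, Mmp17, Mmp25, Adamts3, Adamts5 and Adamts8 (11.8% of all genes), and below in 7, Mmp2, Mmp14, Mmp23, Timp1, Adamts1, Adamts12 and Adamts16 (12.6%).

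The genes named here were chosen after their values were seen, as those with the smallest p, and none passed in edgeR. Fitted below 0 (lower at 8 weeks) on the control side were Mmp23 at -1.44 (SE 0.35), Timp1 at -0.92 (SE 0.26), Adamts1, a protease of versican, at -1.27 (SE 0.41), and Mmp2 at -1.11 (SE 0.36). Fitted above 0 were Mmp17 at 0.79 (SE 0.22), the lipid-anchored Mmp25 at 0.71 (SE 0.20), Adamts8 at 1.58 (SE 0.48) and the procollagen-trimming Adamts3 at 0.93 (SE 0.31). Their adjusted p in edgeR ran from 0.098 to 0.125. The control values of Adamts1 were 72.1, 122 and 49.03 CPM at 6 weeks and 16.4, 29.7, 43.98 and 44.4 CPM at 8 weeks, those of Mmp25 25.6, 17.8 and 26.9 CPM at 6 weeks and 33.7, 33.1, 47.2 and 39.96 CPM at 8 weeks.

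Of the markers of neurons, myelinating Schwann cells, fibroblasts and macrophages, 0 passed between the times on the control side in edgeR, and 3 of 14, 5 of 6, 5 of 6 and 4 of 6 had an unadjusted p under 0.05. On the control side the neuronal markers summed to 7169 to 30536 CPM at 6 weeks and 18814 to 36484 CPM at 8 weeks, those of myelinating Schwann cells to 14199 to 22064 and 5216 to 10419 CPM, the fibroblast markers to 3034 to 6434 and 959 to 2651 CPM, and the macrophage markers to 135 to 369 and 95.8 to 161 CPM; all of these markers were above 0 in every library. The sums of the times did not overlap for Schwann cells and fibroblasts and overlapped for neurons and macrophages. The part of these cells in the values between the times was not tested. With the mean level of the neuronal markers as a covariate, 2 of the 36 genes had an unadjusted p under 0.05 in edgeR in place of 15. Of all genes it was 9.87% in place of 30.4%. The covariate is mixed with time, since 14 of 14 neuronal markers had a fitted difference above 0 here. The lower counts therefore cannot be assigned to cells or to time. The synapsins that surround Timp1, Timp3 and Timp4 had fitted differences of 1.45 (SE 0.52), 0.99 (SE 0.42) and 1.68 (SE 0.51) for Syn1, Syn3 and Syn2, and Timp1, Timp3 and Timp4 of -0.92, 0.36 and -0.069.

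On the surgical side 0 of the 36 genes passed between the times in edgeR (0% of all genes), 0 in DESeq2 and 0 in limma. Of all genes DESeq2 called 13 of 17035 there, and limma called 5 of 17309 on either log2 TPM scale. At an unadjusted p under 0.05 there were 4 of 36, where 6.45% of all genes lay under that level: Adamts1 with a log2 difference of -1.35 (SE 0.43), Mmp3 with 1.51 (SE 0.50), Adamts16 with -1.22 (SE 0.41) and Mmp23 with -1.51 (SE 0.56), each with an adjusted p of 0.674. Every 8-week surgical library was above every 6-week one in 1 of the 36, Mmp3 (5.04% of all genes), and below in 1, Adamts1 (5.17%). The surgical values of Adamts1 were 115, 46.6 and 41.5 CPM at 6 weeks and 26.2, 14.5, 32.9 and 30.8 CPM at 8 weeks. The comparisons of the times share their libraries with those of the sides, so the value of Mmp3 on the surgical side is no separate evidence of its difference between the sides.

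Other genes that act on these proteases were followed in 3 lists. Of 19 genes for activators, other inhibitors and clearance receptors, 0 passed the adjusted threshold in any of the 6 comparisons in edgeR. Over both times 9 of 19 had a fitted difference above 0 with a median of -0.061, as had 50.1% of all genes, and the 2 with the smallest p were Bsg (basigin, an inducer of metalloproteinases) at -0.35 (SE 0.14) and Adam10, a membrane-bound sheddase, at 0.22 (SE 0.09). These 2 also had the smallest p at 6 weeks, at -0.52 (SE 0.22) and 0.34 (SE 0.14), while at 8 weeks they were Serpine2, an inhibitor of thrombin and plasminogen activators, at 0.35 (SE 0.21) and Bsg at -0.23 (SE 0.19). For the difference between times they were the protease trap A2m at 0.86 (SE 0.51) and the cysteine protease inhibitor Cst3 at 0.65 (SE 0.39). Between the times on the control side 12 of the 19 had an unadjusted p under 0.05, against 30.4% of all genes, and 3 of 19 had a fitted value above 0, against 46.3% of all genes, with A2m at -1.68 (SE 0.25) and Cst3 at -1.11 (SE 0.18) and adjusted p of 0.0693 and 0.0698 in edgeR. On the surgical side the smallest p were those of the convertase Pcsk5 at -0.99 (SE 0.47) and of Lrp1, a receptor that clears proteases and their complexes, at -0.62 (SE 0.32).

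Of the 6 ADAMTS-like proteins, which resemble ADAMTS proteases without the catalytic part, 0 passed in any comparison in edgeR. Over both times the smallest p were those of Adamtsl3 at -0.60 (SE 0.28) and Adamtsl4 at -0.40 (SE 0.21), and 2 of 6 had a fitted difference above 0 with a median of -0.11. At 8 weeks the same 2 genes stood at -0.78 (SE 0.39) and -0.35 (SE 0.30). At 6 weeks they were Adamtsl5 at -0.63 (SE 0.44) and Adamtsl4 at -0.47 (SE 0.35), and for the difference between times Adamtsl5 at 0.85 (SE 0.58) and Adamtsl2 at 0.61 (SE 0.44). Between the times Adamtsl2 stood at -0.94 (SE 0.22) and Adamtsl5 at -0.76 (SE 0.37) in control ganglia, and Adamtsl3 at -0.57 (SE 0.52) and Adamtsl2 at -0.34 (SE 0.31) in surgical ganglia.

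Of 17 proteoglycan, link protein and glycoprotein substrates 0 passed in any comparison in edgeR, and over both times 0 had an unadjusted p under 0.05. A fitted difference above 0 was found over both times in 12 of 17, with a median of 0.095, and in 50.1% of all genes. The smallest p there were those of tenascin C (Tnc) at 0.39 (SE 0.36) and aggrecan (Acan) at 1.10 (SE 1.05), which stood at -0.12 and -0.31 without rats B, C and H. At 6 weeks they were the link protein gene Hapln2 at 0.66 (SE 0.53) and tenascin R (Tnr) at 0.90 (SE 0.85), where rat B also held the spinal cord markers given above, and without rat B they stood at -0.013 and -0.27. At 8 weeks they were von Willebrand factor (Vwf) at -0.66 (SE 0.42) and Tnc at 0.76 (SE 0.49), and for the difference between times Tnr at -1.54 (SE 1.05) and Vwf at -0.78 (SE 0.64). Between the times Tnr stood at 1.73 (SE 0.44) and Thbs1, thrombospondin 1, at -1.60 (SE 0.53) in control ganglia. In surgical ganglia Vwf stood at -1.04 (SE 0.30) and versican (Vcan), a proteoglycan cut by several ADAMTS proteases, at -1.30 (SE 0.52).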

How the data were processed

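The 14 rat ganglion libraries came as 2 tables deposited by the authors, holding estimated counts and TPM for each gene. Per the submitters' processing notes, FastQC, Trim Galore, Salmon and DESeq2 were used; versions and genome build were not given in the sources used here. The deposited estimated counts were whole numbers, and the TPM in the second table are the authors' own values, scaled by transcript length. The labels name polyA RNA as the molecule and ribosomal depletion in the protocol. Groups came from the titles; the letters C and D were exchanged between titles and library names, which left the pairs intact, and the surgical library of rat C, titled replicate 1, was used as replicate 2.

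Counts were tested with edgeR 4.0.16 (R 4.3.3): filterByExpr with a minimum count of 10, TMM, quasi-likelihood fits, two-sided p adjusted by Benjamini-Hochberg over all 17035 genes tested, threshold 0.05. Sides were compared within rats (rat as a block, all 14 libraries) and times over the 7 libraries of a side. The pairing comes from the design, as both libraries are from the same animal; deviations from the group means correlated between the libraries of a rat by 0.26 in A, -0.12 in B, 0.75 in E, -0.085 in D, -0.41 in C, 0.13 in G and -0.31 in H. The SE is the difference divided by the square root of the F statistic. Alternatives were DESeq2 1.42.0 and its size factors, other filters, no robust dispersion, limma 3.58.1 on log2(TPM + 1) and log2(TPM + 0.1), a neuronal covariate, removal of a trend with transcript length, no block, and rats left out. Values in every library were given for the Timp genes, the 6 genes with the highest mean TPM and, in each comparison of the sides, the 3 tested genes with the smallest p in each direction. Members, lists and tests were chosen with earlier results of these data known. All 46 genes matched the RefSeq table. A gene of the first list of other genes is not reported here.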

Additional observations from a re-analysis of the deposited data

Results flagged for a closer look

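In groups of 4 libraries, the distance of the highest or lowest library from its nearest neighbour was compared with the range of the group. Of 46 groups tested this way, 8 had a library past the 95% critical value, which chance alone gives in about 1 in 20 groups. Over all genes tested 11.4% of the 34070 groups had such a library, and in 7.38% it was the surgical library of rat C. The genes of the 46 groups were partly chosen for their values, so their share is no result about the set. Of the 8, 5 concerned the surgical library of rat C, in which muscle, bone and fibroblast markers were also highest: Mmp13 was at 169 CPM with the next library at 10.4, Mmp14 at 126 with the next at 45.6, Mmp2 at 199.9 with the next at 55.8, and Adamts3 at 6.402 with the next at 3.71, while Mmp17 was lowest there at 8.73 CPM with the next at 13.1.

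The other 3 lay in different libraries. Adamts16 was low in the control library of rat D at 0.854 CPM, with the next at 2.06, and high in the surgical library of rat G at 1.96, with the next at 1.29. Mmp17 was high in the control library of rat G at 27.2 CPM, with the next at 17.4; without rat G the log2 difference of Mmp17 at 8 weeks was -0.50.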

How the results depend on the processing

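The count of genes past the threshold among the 36 tested stayed at 0 in every comparison and under every alternative, except that DESeq2 called 1 at 8 weeks between the sides (Mmp3) and 9 between the times on the control side, and that leaving out rats in turn gave 0 to 10 for the latter, the 10 without rat E; the cause was not tested. Of 1496 alternative values of single genes, 1440 kept their direction and side of the threshold, 32 passed it with the same direction, and 24 reversed. Over both times without rats B, C and H the values were 0.043 for Adamts15, 0.054 for Mmp23, 0.12 for Timp1, 0.092 for Timp3, -0.19 for Mmp13, 0.046 for Mmp15 and 0.024 for Mmp2, with -0.12 for Tnc and -0.31 for Acan. Likewise, Mmp23, Hapln2 and Tnr at 6 weeks stood at 0.23, -0.016 and -0.23, and Tnc at 8 weeks at -0.057. Leaving out 1 rat gave -0.28 to 0.070 for Timp1, -0.27 to 0.020 for Timp4, -0.16 to 0.042 for Mmp15 and -0.48 to 0.13 for Mmp2 over both times, and -1.37 to 0.24 for Mmp23, -0.013 to 1.12 for Hapln2 and -0.27 to 2.05 for Tnr at 6 weeks. Without the replicate block for rat, 0 genes of the set were called, so the block changed no call among the 36. Of all genes, 2 were called between the sides at 6 weeks without the block and 0 with it. Over both times Timp4 stood at 0.0089 and Mmp2 at 0.059 without the block. On log2(TPM + 1) the median of all genes moved to 0.16 at 6 weeks and -0.10 at 8 weeks. Between the times it moved to 0.41 in control ganglia and 0.20 in surgical ganglia. The median of the 36 genes between the times on the control side moved from -0.28 to 0.27. There 24 of 36 were above 0 in place of 13. None of the 85 fitted differences followed through the alternatives reversed on this scale, but other genes did change direction. Mmp14 was lower in CPM in every 8-week control library than in every 6-week one. Its mean control TPM was 19.5 at 6 weeks and 23.3 at 8 weeks. Mmp3 has no value under the filter at 1 CPM, and its difference at 8 weeks on log2(TPM + 1) was 0.61. Of the 85 fitted differences of named genes, 51 moved by over 1.5 times when some rat was left out. Depth limits Mmp3 and the 10 genes under the filter, whose counts reached at most 56.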
